A study of Mus musculus with 4 samples.

Results

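Messenger RNA of 10 genes of the PDGF and FGF growth factor systems was followed in mouse bone marrow mesenchymal stem cells (MSCs), the adherent stromal cells of marrow that can form bone, cartilage and fat. The genes were the PDGF ligands Pdgfa, Pdgfb, Pdgfc and Pdgfd, the PDGF receptors Pdgfra and Pdgfrb, the FGF ligands Fgf2 and Fgf7, and the FGF receptors Fgfr1 and Fgfr2. They were taken by name, as the probe sets whose sole gene symbol in the platform annotation was one of these 10, out of 22180 genes on the array. Each of the 10 had 1 probe set, and all 10 passed a filter that kept the 60% of genes with the highest mean, 13308 genes with a mean of at least 4.51. Pdgfd was included because its low level in Snail1-KO cells, along with that of its neighbours, was already known, so its genotype difference is a description.

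The arrays were Snail1-KO cells given TGF-b1 for 2 h, untreated Snail1-KO cells, Snail1-WT cells given TGF-b1 for 2 h and untreated Snail1-WT cells, with 1 array each. The labels give bone marrow as the source of all 4, and Snail1 is the repressor protein encoded by Snai1. The sources used here do not say how Snail1 was removed, at what dose TGF-b1 was given, how old the mice were or whether the cultures were separate or clonal. The comparisons address how these growth factor genes differed with TGF-b1 and between Snail1-KO and Snail1-WT cells.

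PDGFs are dimers that bring together receptor tyrosine kinases of stromal cells and drive their division and migration. PDGF-A and PDGF-C act mainly through PDGFR-alpha, PDGF-D mainly through PDGFR-beta, and PDGF-B binds both. PDGF-C and PDGF-D are secreted as latent factors that proteases must cut. FGFs bind their receptor tyrosine kinases together with heparan sulfate. FGF2 has no classical secretion signal and acts on FGFR1 among others, while FGF7 is made by mesenchyme and acts on epithelium through a splice form of FGFR2. In marrow, PDGFR-alpha and PDGFR-beta are used as surface markers of stromal progenitors, and PDGFR-beta also marks pericytes.

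Promoter windows from RefSeq (GRCm38.p6), 250 bases before to 50 after the annotated start, were matched for 7 of the 10 genes. Those of Pdgfc and Fgf2, the ligands at least 1.5-fold higher with TGF-b1 in both genotypes, of Pdgfra, the gene that was lower after TGF-b1 in both genotypes, and of Pdgfd, the gene with the largest genotype difference, are printed 5′ to 3′ on the strand of the gene. Capitals mark CAGAC on either strand (GTCTG on the strand shown), the short sequence bound by SMAD proteins, which carry the TGF-b signal into the nucleus. The windows are chr3:81036166-81036465 (plus strand) for Pdgfc, chr3:37348403-37348702 (plus strand) for Fgf2, chr5:75152001-75152300 (plus strand) for Pdgfra and chr9:6168236-6168535 (plus strand) for Pdgfd.
Pdgfc: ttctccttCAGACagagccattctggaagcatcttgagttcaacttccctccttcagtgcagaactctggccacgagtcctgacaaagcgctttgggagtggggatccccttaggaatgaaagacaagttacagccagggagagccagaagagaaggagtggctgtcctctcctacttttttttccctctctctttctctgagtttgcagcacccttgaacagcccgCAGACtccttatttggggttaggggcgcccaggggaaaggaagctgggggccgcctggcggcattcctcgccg
Fgf2: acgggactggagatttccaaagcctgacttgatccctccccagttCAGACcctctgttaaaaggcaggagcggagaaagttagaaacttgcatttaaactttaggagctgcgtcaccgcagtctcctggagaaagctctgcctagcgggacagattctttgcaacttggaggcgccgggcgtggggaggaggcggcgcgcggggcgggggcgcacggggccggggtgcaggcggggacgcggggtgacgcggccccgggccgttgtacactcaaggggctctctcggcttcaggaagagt
Pdgfra: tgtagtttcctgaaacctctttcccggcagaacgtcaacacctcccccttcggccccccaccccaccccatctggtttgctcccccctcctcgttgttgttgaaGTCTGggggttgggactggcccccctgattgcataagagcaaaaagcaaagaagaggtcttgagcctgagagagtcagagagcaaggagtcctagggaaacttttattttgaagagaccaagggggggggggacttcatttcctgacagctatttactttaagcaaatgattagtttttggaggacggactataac
Pdgfd: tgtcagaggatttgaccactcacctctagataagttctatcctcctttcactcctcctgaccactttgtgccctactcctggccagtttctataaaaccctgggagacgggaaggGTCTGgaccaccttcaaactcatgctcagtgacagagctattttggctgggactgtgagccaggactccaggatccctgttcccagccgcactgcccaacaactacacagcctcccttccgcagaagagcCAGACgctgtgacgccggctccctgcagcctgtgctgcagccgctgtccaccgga

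CAGAC or its reverse GTCTG occurred in windows of 5 of the 7 genes and in 49.6% of all 32851 RefSeq promoter windows. In Pdgfc it began at -242 and -23 relative to the start, in Fgf2 at -205, in Pdgfra at -146, in Fgf7 at -201, and in Pdgfd at -135 and -5. The windows of Pdgfa and Fgfr2 held none. CAGGTG, the E-box that Snail1 binds (reverse CACCTG), was in none of the 7 genes' windows and in 20.2% of all windows. The AP-1 sequence TGANTCA, which reads the same on both strands, was likewise in none of the 7 and in 7.81% of all. A match is a string of letters and no measured binding site. As CAGAC alone matched, no motif overlapped another.

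Values are RMA log2 values, in which a difference of 1 is 2-fold and 0.58 is 1.5-fold. Levels are compared between arrays for a gene and not between genes, because probe sets differ in brightness. With 1 array per group no difference has a replicate check, and no test was made. As a yardstick of error, each gene was given a noise SD for a difference between arrays, estimated from how far both TGF-b1 responses disagreed among the 500 genes nearest in level. It was 0.22 in the lowest and 0.09 in the highest quintile of level. A difference between cultures that both arrays of a genotype share cancels in this estimate and is not covered by it. Snai1 measured 5.34 and 5.09 in treated and untreated Snail1-KO cells, against 7.63 and 6.69 in treated and untreated Snail1-WT cells, the direction of the labels. Of the stromal markers, 10 of 12 measured passed the filter, with array medians from 9.42 to 9.61, and Lepr (2.86 to 3.20) and Nt5e (4.23 to 4.62) did not. Haematopoietic markers passed in 5 of 12 cases (array medians 3.98 to 4.23). Among these, Cd34 was high at 10.25 to 11.03, with Cd14 at 5.53 to 6.59 and Cd68 at 6.05 to 6.23. Endothelial markers passed in 4 of 9 cases (4.33 to 4.46), epithelial in 4 of 7 (4.36 to 4.68) and smooth muscle and pericyte markers in 9 of 10 (6.01 to 6.58).

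**Figure D1:**
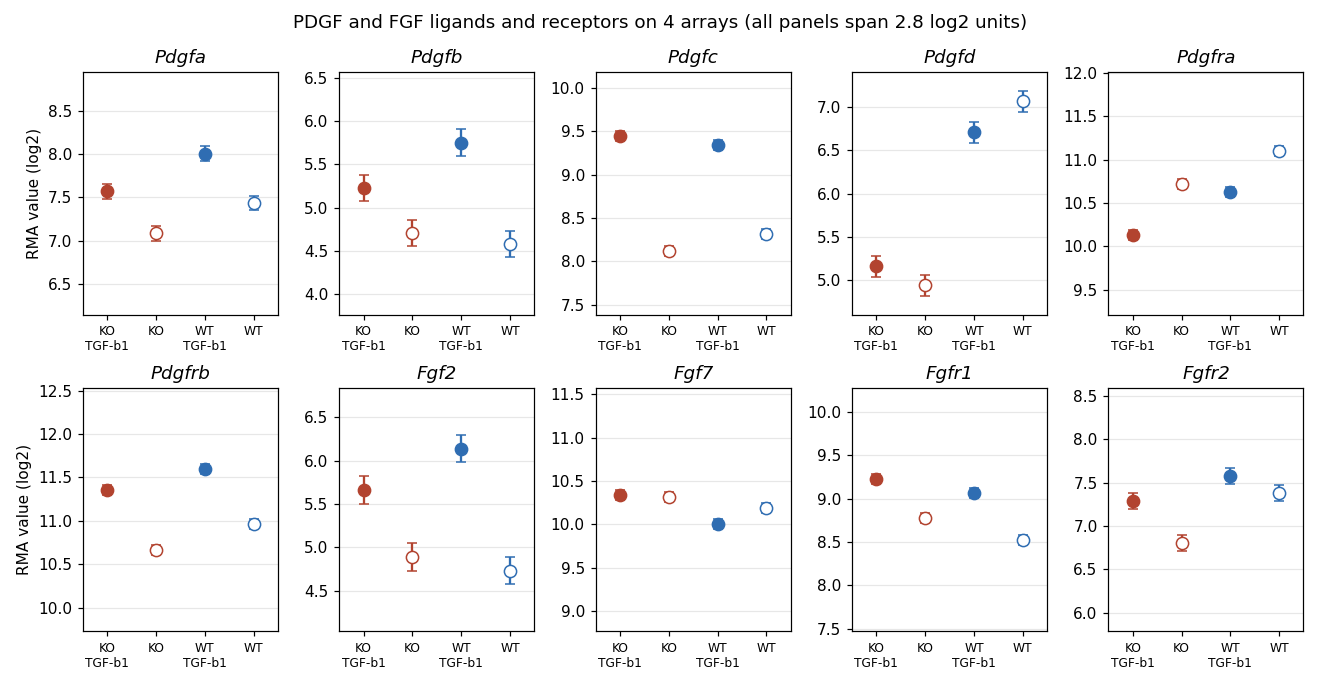
RMA log2 value (vertical axis, each panel with the same span) of the 10 genes on the 4 arrays, 1 point per array, Snail1-KO in red and Snail1-WT in blue, filled with TGF-b1 and open without. Bars are the noise SD of a single array, the tabulated noise SD of a difference divided by the square root of 2. Pdgfd sits between 4.94 and 5.16 on both Snail1-KO arrays and between 6.71 and 7.06 on both Snail1-WT arrays, while for Pdgfc both filled points lie above both open ones.

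After 2 h of TGF-b1 most of the 10 genes measured higher, and Pdgfra measured lower. In Snail1-KO cells 9 of the 10 genes were higher after TGF-b1, where 46.2% of all genes were, and in Snail1-WT cells 7 of 10, where 45.2% were, with median differences of 0.48 and 0.56, against -0.02 and -0.03 over all 13308 genes. At least 2-fold higher were 1 of 10 in Snail1-KO cells (Pdgfc), where 0.999% of all genes were, and 3 of 10 in Snail1-WT cells (Pdgfb, Pdgfc and Fgf2), where 0.714% were. None was 2-fold lower, against 0.308% of all genes in Snail1-KO and 0.271% in Snail1-WT cells. At 1.5-fold, 3 were higher in Snail1-KO cells (Pdgfc, Pdgfrb and Fgf2; 3.31% of all genes) and 4 in Snail1-WT cells (Pdgfb, Pdgfc, Pdgfrb and Fgf2; 2.48%), while 1 was lower in Snail1-KO cells (Pdgfra; 1.83%) and none in Snail1-WT cells (1.89%). In 6 of the 10 genes (Pdgfa, Pdgfb, Pdgfc, Pdgfrb, Fgf2 and Fgfr1) both treated arrays lay above both untreated ones, as in 16.3% of all genes, and in 1 (Pdgfra) both lay below, as in 18.9%. In RNA from a whole culture, more cells of a type and more RNA per cell cannot be told apart.

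Pdgfc measured 9.45 in treated and 8.12 in untreated Snail1-KO cells, and 9.35 in treated and 8.31 in untreated Snail1-WT cells. Both treated arrays lay above both untreated ones, by 1.33 in Snail1-KO cells (2.51-fold) and 1.03 in Snail1-WT cells (2.05-fold), with a noise SD of 0.08. These were the 64th and 89th highest responses of the 13308 genes. With arrays centred on their medians the response in Snail1-WT cells was 0.999, just under 2-fold.

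Pdgfb, which encodes the ligand of both PDGF receptors, measured 5.23 in treated and 4.71 in untreated Snail1-KO cells, and 5.75 in treated and 4.58 in untreated Snail1-WT cells. It was thus higher with TGF-b1 in both genotypes, by 0.52 and 1.17, at a noise SD of 0.22. Its untreated values lie close to the filter limit of 4.51, so the size of the increase is uncertain. Pdgfa, the ligand of PDGFR-alpha, measured 7.57 in treated and 7.09 in untreated Snail1-KO cells, and 8.01 in treated and 7.43 in untreated Snail1-WT cells. Its responses were 0.48 and 0.57, at a noise SD of 0.12. Their gap of -0.09 is within the noise SD of 0.17 for a difference of responses. Pdgfd was the one PDGF ligand without a like response: it measured 5.16 in treated and 4.94 in untreated Snail1-KO cells, and 6.71 in treated and 7.06 in untreated Snail1-WT cells. Its responses of 0.22 and -0.36 were opposite in sign, and were 1.29 and 2.09 times its noise SD of 0.17.

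The PDGF receptor genes differed in opposite directions after TGF-b1. Pdgfra measured 10.13 in treated and 10.72 in untreated Snail1-KO cells, and 10.62 in treated and 11.10 in untreated Snail1-WT cells, so that treated cells were lower in each genotype, by -0.60 and -0.47. Pdgfrb measured 11.35 in treated and 10.66 in untreated Snail1-KO cells, and 11.59 in treated and 10.96 in untreated Snail1-WT cells, higher by 0.69 and 0.63. The noise SD was 0.08 for each gene. Within the same arrays the Pdgfrb response exceeded the Pdgfra response by 1.29 in Snail1-KO cells and 1.10 in Snail1-WT cells, against a noise SD of 0.11. This contrast does not depend on how the arrays were scaled by a constant. Smooth muscle and pericyte markers, a class to which Pdgfrb is often assigned, had median responses of 0.11 in Snail1-KO and 0.23 in Snail1-WT cells over 10 genes. Of the 9 kept, 1 was at least 1.5-fold higher in each, where 3.31% of all genes were in Snail1-KO and 2.48% in Snail1-WT cells. The part of these markers in the Pdgfrb response was not tested.

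**Figure D2:**
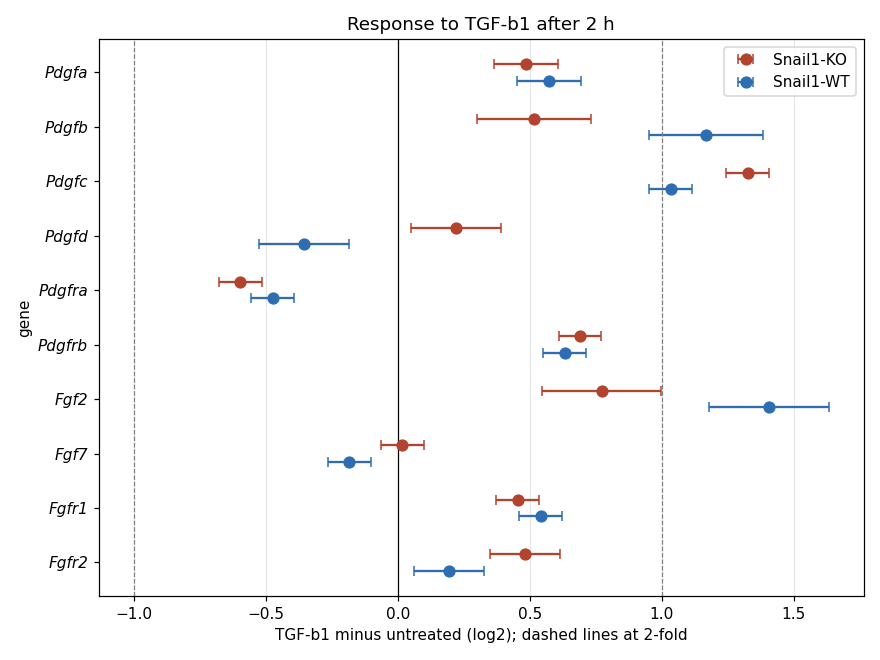
Response to TGF-b1 (horizontal axis, treated minus untreated log2 value) of each gene, Snail1-KO in red above Snail1-WT in blue. Bars are 1 noise SD on each side and dashed lines mark 2-fold. Pdgfc lies farthest right in Snail1-KO cells and Fgf2 in Snail1-WT cells, Pdgfra lies left of 0 in both genotypes at -0.60 and -0.47, and Pdgfrb lies right of it at 0.69 and 0.63.

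Among Fgf2, Fgf7, Fgfr1 and Fgfr2 the ligand Fgf2 had the largest response in both genotypes. It measured 5.66 in treated and 4.89 in untreated Snail1-KO cells, and 6.14 in treated and 4.73 in untreated Snail1-WT cells. It was higher by 0.77 in Snail1-KO cells and by 1.41 in Snail1-WT cells (2.65-fold, the 36th highest response there), with a noise SD of 0.23. Like those of Pdgfb, its untreated values were near the filter limit. Fgf7, the keratinocyte growth factor, measured 10.34 in treated and 10.32 in untreated Snail1-KO cells, and 10.004 in treated and 10.19 in untreated Snail1-WT cells. Its range over the 4 arrays, 0.33, was the smallest of the 10 genes, and its responses were 0.02 and -0.18 with a noise SD of 0.08.

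The receptor gene Fgfr1 measured 9.23 in treated and 8.78 in untreated Snail1-KO cells, and 9.06 in treated and 8.52 in untreated Snail1-WT cells. Its responses of 0.45 and 0.54 were 5.50 and 6.56 times its noise SD of 0.08. Fgfr2 measured 7.29 in treated and 6.81 in untreated Snail1-KO cells, and 7.57 in treated and 7.38 in untreated Snail1-WT cells. It was higher by 0.48 in Snail1-KO cells, which was 3.62 times its noise SD of 0.13, and by 0.19 in Snail1-WT cells, 1.45 times it. The sources used here do not place its probes on the gene, and the splice forms that bind FGF7 and FGF2 cannot be told apart.

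**Figure D3:**
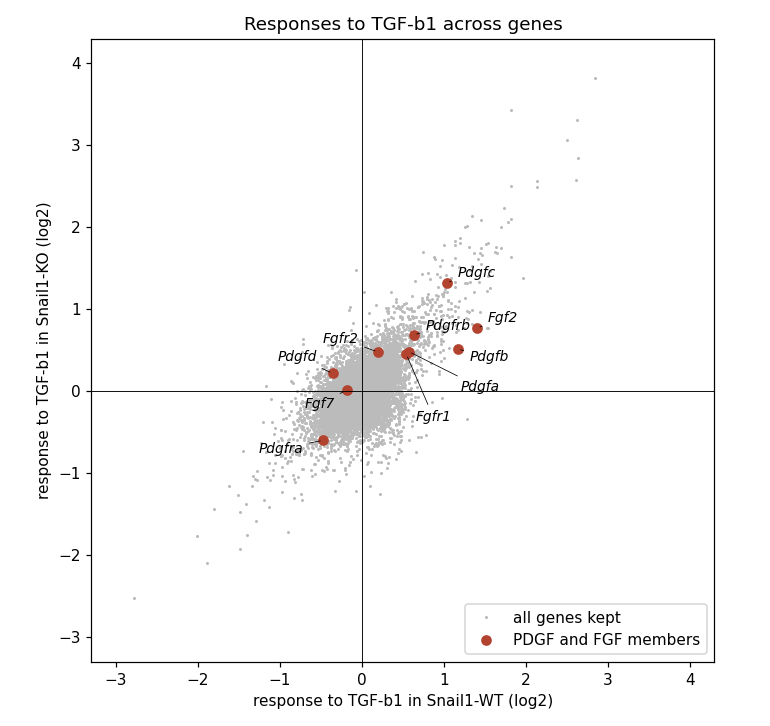
Response to TGF-b1 (log2) of Snail1-WT cells on the horizontal and of Snail1-KO cells on the vertical axis, a grey dot for each of 13308 genes and a red point for each of the 10 PDGF and FGF genes. Pdgfc, Fgf2 and Pdgfb lie right of 1 on the horizontal axis, at 1.03, 1.41 and 1.17, while Fgf7 lies near the origin.

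Between genotypes 9 of the 10 genes lay within 1.5-fold in both pairs of arrays, and Pdgfd was the exception. With TGF-b1, 1 of 10 genes was past 2-fold on the lower side in Snail1-KO cells (Pdgfd; 0.631% of all genes) and none 2-fold higher (1.07%), and at 1.5-fold the counts were also 1 lower (3% of all genes) and none higher (5.14%). Without TGF-b1 the counts were again 1 lower at 2-fold (Pdgfd; 0.744% of all genes) and none higher (0.827%), and 1 lower at 1.5-fold (3.13%) and none higher (4.01%). Both Snail1-KO arrays lay below both Snail1-WT arrays in 2 of the 10 genes (Pdgfd and Fgfr2), as in 25.2% of all genes, and above them in 1 (Fgf7), as in 25.3%. Pdgfd was lower in Snail1-KO cells by -1.55 with TGF-b1 (2.92-fold) and by -2.12 without it (4.36-fold). These were the 21st and the 5th lowest of the 13308 genotype differences. As Pdgfd was included for its known low level in Snail1-KO cells, its counts and ranks here describe that choice. In Snail1-KO cells Pdgfd measured 4.94 to 5.16, not far above the filter limit of 4.51, so the size of the difference is uncertain.

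**Figure D4:**
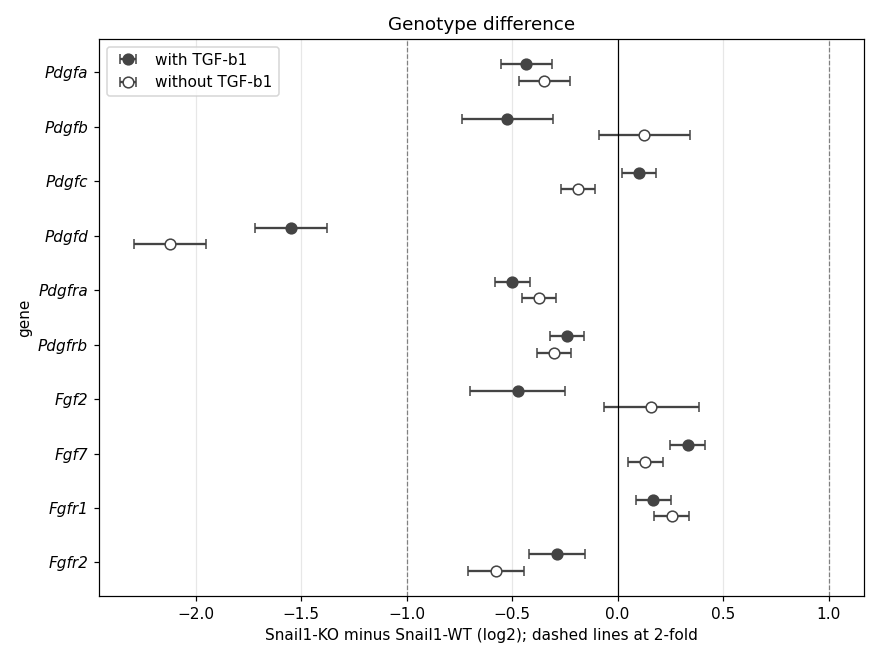
Genotype difference (horizontal axis, Snail1-KO minus Snail1-WT log2 value) of each gene with TGF-b1 (filled, above) and without it (open). Bars are 1 noise SD on each side and dashed lines mark 2-fold. Pdgfd alone lies beyond 2-fold, at -1.55 and -2.12, and the other 9 genes lie between -0.58 and 0.33.

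Genes beside Pdgfd on chromosome 9 were lower in Snail1-KO cells too. Of the 5 measured genes on each side in the gene order of GRCm38.p6, 6 passed the filter on low values. Of these 6, 4 were at least 1.5-fold lower in both pairs. Over all genes 3% were that much lower with TGF-b1 and 3.13% without it, and the share lower in both pairs was not counted. The caspase genes Casp1 and Casp12 differed by -1.37 with and -1.49 without TGF-b1 and by -1.15 and -0.93. Dync2h1, a dynein heavy chain gene of cilia, differed by -0.87 and -1.11, and Dcun1d5, which promotes cullin neddylation, by -1.56 and -1.44. The other 2 that passed were Casp4, at -0.26 and -0.44, and Msantd4, at 0.16 and 0.18. Below the filter, Mmp13 differed by -0.90 and -0.96, Gria4 by 0.22 and 0.14, Ddi1 by 0.02 and -0.15 and Mmp12 by -0.40 and 0.05. The stretch was known before from these arrays, and these are the same values. Pdgfd was thus not the only gene of the stretch with lower values, and their cause was not tested.

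**Figure D5:**
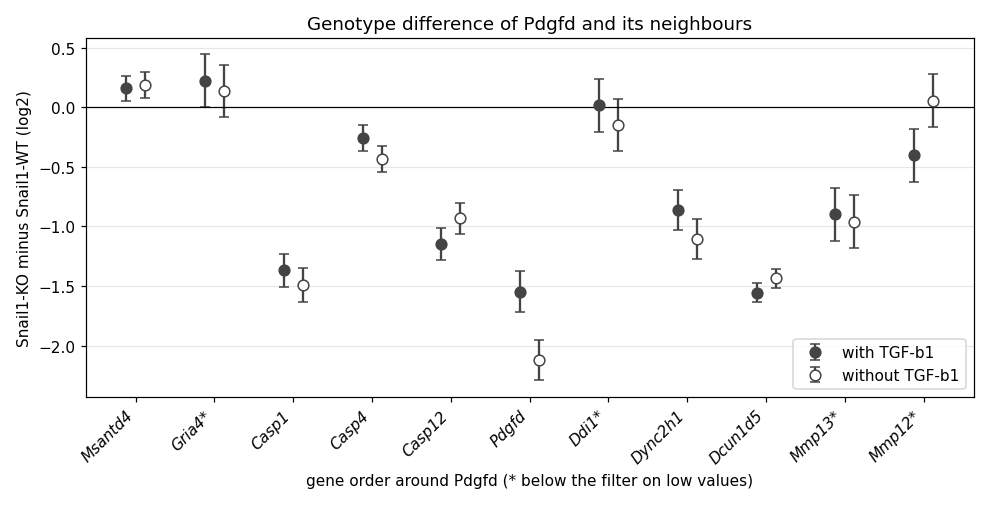
Genotype difference (vertical axis, Snail1-KO minus Snail1-WT log2 value) of Pdgfd and the 5 measured genes on each side, in gene order along chromosome 9, filled with and open without TGF-b1. Bars are 1 noise SD on each side and asterisks mark genes below the filter on low values. From Casp1 to Dcun1d5 the genes that passed the filter lie below 0, with Pdgfd lowest at -2.12 without TGF-b1.

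By Euclidean distance of centred log2 values over the 4 arrays, the 5 genes with the pattern most like that of Pdgfd were Mmp3 (distance 0.24), Igf2 (0.25), Cdsn (0.27), Igfbp3 (0.28) and Adamts9 (0.29). Mmp3, which encodes stromelysin, is the only one of these 5 that also lies on chromosome 9. With 4 arrays, such likeness shows mainly that a gene was low on both Snail1-KO arrays.

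Among the other PDGF ligands, Pdgfa was lower in Snail1-KO cells by -0.43 with and -0.35 without TGF-b1, at a noise SD of 0.12. Pdgfc differed by 0.10 and -0.19 and Pdgfb by -0.52 and 0.13, so neither kept a direction. Both PDGF receptors were lower in Snail1-KO cells: Pdgfra by -0.50 and -0.37, and Pdgfrb by -0.24 and -0.30, at a noise SD of 0.08. Of the 9 smooth muscle and pericyte markers kept, 3 were past 1.5-fold on the lower side in Snail1-KO cells with TGF-b1 (3% of all genes) and none on the higher (5.14%). Without it 2 were lower (3.13%) and 1 higher (4.01%) by that much. Tagln differed by -0.62 with and -0.70 without TGF-b1, Cnn1 by -0.76 and -0.90 and Mcam by -0.72 and -0.53, while the medians of the 10 markers were -0.02 and 0.10. Their part in the Pdgfrb difference was not tested. The differences of Pdgfra are 6.12 and 4.59 times the noise SD, but any difference between the 2 cell populations, whatever its source, would show in both pairs. Fgf2 differed by -0.47 and 0.16. Fgf7 was higher by 0.33 and 0.13 and Fgfr1 by 0.17 and 0.26. Fgfr2 was lower by -0.29 and -0.58. Over the 10 genes the median was -0.36 with and -0.24 without TGF-b1, against -0.002 and -0.0003 over all genes, with 7 and 6 of 10 lower, where 50.4% and 50.04% of all genes were.

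The TGF-b1 responses of the genotypes were compared as the response of Snail1-KO cells minus that of Snail1-WT cells. With 1 array per group, this is a difference between 2 cell populations, whatever its source. Pdgfb and Fgf2 were the 2 of 10 genes with a response at least 1.5-fold smaller in Snail1-KO cells, by -0.65 and -0.63, where 1.97% of all genes were, and none was 1.5-fold higher (1.61%). For these genes the noise SD of a difference of responses is 0.31 and 0.32, so the values are 2.13 and 1.98 times it. On the treated arrays both genes were lower in Snail1-KO cells, and on the untreated arrays both were slightly higher. Pdgfd differed by 0.58, 2.39 times its noise SD, and Pdgfc by 0.29, 2.53 times it. For Pdgfa, Pdgfra, Pdgfrb and Fgfr1 the difference of the responses lay between -0.12 and 0.06, at most 1.08 times the noise SD.

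Related genes from lists drawn up for these pathways gave the surroundings. Of 20 other FGF ligand genes 11 passed the filter on low values. Fgf18, which acts on cartilage and bone, was higher after TGF-b1 by 1.34 in Snail1-KO and 1.03 in Snail1-WT cells, the only one at least 2-fold higher. It measured 6.999 in treated and 5.66 in untreated Snail1-KO cells, and 6.29 in treated and 5.26 in untreated Snail1-WT cells. Fgf23, a phosphate-regulating hormone of bone cells, was the only one at least 2-fold apart between genotypes, lower in Snail1-KO cells by -1.12 with and -1.25 without TGF-b1. It measured 4.20 and 4.46 in treated and untreated Snail1-KO cells, below the filter limit, so the size of that difference is uncertain. Fgf10, a mesenchymal ligand of the FGF7 subfamily, was lower after TGF-b1 by -0.65 and -0.36, and the metabolic hormone gene Fgf21 was higher by 0.64 and 0.38. Fgf10 measured 4.37 in treated Snail1-KO cells, below the filter limit, so the size of its response there is uncertain. The medians of the 20 measured genes after TGF-b1 were -0.06 in Snail1-KO and 0.09 in Snail1-WT cells.

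None of the 11 kept genes among 16 other FGF receptors and co-receptors was 1.5-fold apart after TGF-b1. Between genotypes the heparan sulfate proteoglycans, which FGF needs to bind its receptors, went both ways: Gpc1 was higher in Snail1-KO cells by 0.81 with and 0.78 without TGF-b1, while Gpc6 was lower by -0.82 and -0.88 and Sdc4 by -0.61 and -0.63. Fgfrl1, a receptor without a kinase domain, differed by -0.76 and -0.43. At 1.5-fold, 1 of the 11 was higher (5.14% of all genes) and 4 lower (3%) in Snail1-KO cells with TGF-b1. Without it 1 was higher (4.01%) and 2 lower (3.13%).

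Of 11 genes for PDGF processing, binding and co-receptors, 9 passed the filter. Furin, a protease of the secretory pathway that cuts growth factor precursors, was higher after TGF-b1 by 0.77 in Snail1-KO and 0.65 in Snail1-WT cells. Pdgfrl, which encodes a PDGF receptor-like protein, was higher in Snail1-KO cells by 1.11 with and 0.79 without TGF-b1, the only one of the 9 at least 2-fold apart in any comparison. Lrp1, a co-receptor of PDGFR-beta, was higher after TGF-b1 by 0.41 and 0.36, and Nrp1 by 0.37 and 0.14. Among 19 measured receptor adaptors and enzymes, none was 2-fold apart in any comparison. Pik3r1, the regulatory subunit of PI 3-kinase, was lower after TGF-b1 by -0.85 and -0.42, while the ubiquitin ligase gene Cbl was higher by 0.53 and 0.33, Rasa1 by 0.44 and 0.20 and Stat5b by 0.43 and 0.01.

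Downstream, 10 of 11 genes of a list of feedback regulators of receptor tyrosine kinase signalling passed the filter. The ERK phosphatase genes Dusp4 and Dusp6 were higher after TGF-b1, by 1.16 and 0.76 in Snail1-KO cells and by 0.99 and 0.70 in Snail1-WT cells. So 1 of the 10 was at least 2-fold higher in Snail1-KO cells, where 0.999% of all genes were. In Snail1-WT cells none was, against 0.714% of all genes. Dusp4 was lower in Snail1-KO cells by -1.27 with and -1.43 without TGF-b1, the only one of the 10 at least 2-fold apart between genotypes. Spry2, an inhibitor of FGF signalling, was lower in Snail1-KO cells by -0.93 with and -0.70 without TGF-b1. After TGF-b1 it was lower by -0.40 in Snail1-KO and -0.17 in Snail1-WT cells. Flrt2, of a family that binds FGF receptors, differed by -0.14 and -0.10 between genotypes. It was higher after TGF-b1 by 0.57 in Snail1-KO and 0.62 in Snail1-WT cells. The medians of the 11 measured genes between genotypes were -0.40 with and -0.34 without TGF-b1. All 12 measured transcription factors that ERK and SRF induce passed the filter. At least 2-fold higher after TGF-b1 were 3 of 12 in Snail1-KO cells (Egr2 at 2.85, Junb at 1.33 and Egr1 at 1.03), where 0.999% of all genes were. In Snail1-WT cells 2 of 12 were (Egr2 at 2.64 and Junb at 1.13), where 0.714% of all genes were, while Egr1 differed by -0.14 there. Ier2 was higher by 0.81 and 0.59. In the other direction, Etv1 was lower after TGF-b1 by -0.77 in Snail1-KO and -0.51 in Snail1-WT cells, and Etv5 by -0.22 and -0.70. These transcription factors had medians of -0.35 with and -0.47 without TGF-b1 between genotypes, and Egr1 was the 1 past 2-fold, at -1.71 in untreated cells.

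Of 20 other receptor tyrosine kinase genes 17 passed the filter. None was 2-fold apart after TGF-b1. With TGF-b1, 1 was 2-fold lower in Snail1-KO cells (Ror1, at -1.01, and -0.88 without TGF-b1), as were 0.631% of all genes. The collagen receptor gene Ddr1 was higher after TGF-b1 by 0.62 in Snail1-KO and 0.60 in Snail1-WT cells, close to Pdgfrb at 0.69 and 0.63. Csf1r and Met, the receptors for CSF1 and hepatocyte growth factor, differed after TGF-b1 by -0.50 and -0.15 in Snail1-KO cells and by -0.08 and -0.50 in Snail1-WT cells. Csf1r measured 4.22 in treated Snail1-KO cells, below the filter limit, so the size of its response there is uncertain.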

How the data were processed

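RNA from 4 MSC samples was measured on Affymetrix arrays. Biotin labelling followed the WT PLUS kit, per the labels' protocols. The deposited values are on a log2 scale, and the submitters' processing notes name RMA and R 3.1.1. RMA equalises the distributions of the arrays, so a shift shared by most genes would be removed. Array medians lay between 4.58 and 4.63. The sources used here do not give the authors' genome build. Precision is limited by the number of arrays.

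Sample titles gave the groups, and the platform annotation gave gene names: 1 symbol for 23521 of 41345 probe sets, several for 1814 and none for 16010. No probe set with several symbols named one of the 10 genes. A gene with several probe sets was represented by the one with the highest mean. The noise SD is the scaled median absolute deviation of the response in Snail1-KO minus that in Snail1-WT cells, over the square root of 2. The procedure was tested on simulated data.

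The 10 genes and the lists were chosen with earlier results of these data known. Named were all 10 genes, up to 4 kept genes per pathway list, the 5 genes nearest to Pdgfd in pattern and its 5 neighbours on each side. Genes of a list were ranked by the larger of 2 values. These were the largest absolute response and, where both genotype differences had the same sign, the smaller of them in size. Etv1, Etv5 and some cell type markers were named besides. Alternatives were median centring, cyclic loess (limma 3.58.1 in R 4.3.3), the mean of probe sets, no filter, a filter keeping 40% of genes and a 1.5-fold threshold. Other work used Python 3.11.15, numpy 2.4.6, pandas 2.3.3 and matplotlib 3.10.9.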

Additional observations from a re-analysis of the deposited data

Results flagged for a closer look

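For 5 of the 10 genes the difference had opposite signs in the groups compared. With 1 array per group these differences were not tested, and the sign of a small value carries little. The response to TGF-b1 was positive in Snail1-KO cells and negative in Snail1-WT cells for Pdgfd and Fgf7, with a difference of the responses of 0.58 and 0.20. The genotype difference was negative with and positive without TGF-b1 for Pdgfb and Fgf2, with a difference of -0.65 and -0.63, and positive with and negative without it for Pdgfc, with a difference of 0.29. The largest of these relative to its noise SD was that of Pdgfc, at 2.53 times.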

How the results depend on the processing

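All 50 values of the 10 genes (4 comparisons and the difference of the responses) kept their sign and moved by less than their noise SD under median centring (at most 0.050) and cyclic loess (at most 0.036). The mean of probe sets changed none, since each gene has 1. With 40% of genes kept, the genes at least 2-fold higher after TGF-b1 in Snail1-WT cells were 1 of the 10 in place of 3, since Pdgfb and Fgf2 then failed the filter, and median centring gave 2. At 1.5-fold, TGF-b1 left 3 of the 10 higher and 1 lower in Snail1-KO cells. Over all genes the 1.5-fold counts after TGF-b1 in Snail1-KO cells were 441 higher and 243 lower, and those in Snail1-WT cells 330 higher and 251 lower. In Snail1-KO relative to Snail1-WT cells they were 684 higher and 399 lower with TGF-b1, and 534 higher and 417 lower without it. With 40% of genes kept, 93 genes were at least 2-fold higher with TGF-b1 between genotypes, in place of 142. Apart from the count under median centring, where Pdgfc in Snail1-WT cells came to 0.999, each of these follows from a lower threshold or from fewer genes.

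No replicate block was fitted, since each group has 1 array and the labels give no replicate numbers. An additive fit of genotype and treatment, which leaves a single residual degree of freedom, was not made. Genes near the filter limit, such as Pdgfb, Fgf2 and Pdgfd in Snail1-KO cells, have noise SDs of 0.17 to 0.23, against 0.08 for Pdgfrb.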
